A study of Homo sapiens with 6 samples.

Results

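Nucleoporins, importins and exportins are the proteins that build the nuclear pore and carry cargo through it. Their 55 genes were taken from the 12793 rows of an RNA-seq table by gene symbol alone: symbols starting with NUP and a digit, KPNA, KPNB, IPO, XPO or TNPO, and POM121, NDC1, TPR, AAAS, SEC13, SEH1L, RANBP2, RAN and CSE1L. The table came from HCT15 cells, a human colorectal cancer line, kept in RPMI-1640 medium with serum. It held 3 libraries labelled RBM15 knockout, made with CRISPR/Cas9 and an RBM15 guide, and 3 control libraries that carried a control guide and the label WT. All 6 libraries shared the line, the medium and the library kit. The labels do not say whether the edited cells were a clone or a pool, or whether libraries came from separate cultures, so p-values below speak of library-to-library spread, which could be technical.

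Proteins enter the nucleus bound to importins and leave it bound to exportins, and most of these receptors belong to the importin beta family. The small GTPase Ran sets the direction: its GTP form, held high inside the nucleus, releases import cargo and loads export cargo. Importin alpha proteins are adaptors that link the classical nuclear localization signal to importin beta 1. The pore itself is a ring of nucleoporins, with outer and inner rings as scaffold, a channel lined with phenylalanine-glycine repeats, filaments on the cytoplasmic side and a basket on the nuclear side. RBM15 binds RNA, helps the m6A methyltransferase find its targets, and is also known to bind the mRNA export receptor NXF1.

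Values are FPKM, fragment numbers scaled to transcript length and library size, as the authors deposited them. For RBM15, the targeted gene, libraries 1 to 3 labelled knockout gave 17.3, 18.5 and 18.03 FPKM and control libraries 1 to 3 gave 5.97, 5.89 and 5.51 FPKM. It was thus higher where the label says knockout (exact 2-sided permutation p = 0.1, the smallest that 3 against 3 can give). In the limma fit used below for the other genes, its log2 difference was 1.48 (SE 0.0492, limma adjusted p = 3.88e-06). The edit itself was not analysed here, and every direction below rests on the labels. Of 10 epithelial markers 8 were in the table, and they summed to 3483 to 3623 FPKM in libraries labelled knockout and 3808 to 3902 FPKM in the controls. The keratin gene KRT8 was higher, at 1339 to 1449 FPKM against 1269 to 1307 FPKM. The other 7 were lower, by as little as for CDH1 (E-cadherin), at 115 to 119.8 FPKM against 121 to 123 FPKM, and by as much as for VIL1 (villin), at 3.69 to 4.12 FPKM against 16.8 to 17.2 FPKM. Of 5 leukocyte markers only CD68, which is not exclusive to leukocytes, was listed (6.03 to 7.29 FPKM against 2.66 to 3.08 FPKM). Among 5 fibroblast markers only COL1A1 was listed, at 0.835 to 1.41 FPKM against 0.917 to 1.41 FPKM, and 0 of 4 endothelial markers were. The part of these markers in the results below was not tested.

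Most of the transport genes were higher in libraries labelled knockout, and RAN, the most abundant of them, was the main exception. Of the 55 genes, 54 had a mean of at least 1 FPKM and were tested, 38 rose, 4 fell and 12 did not pass (limma on log2(FPKM + 1), Benjamini-Hochberg adjusted over all genes, threshold 0.05). The background is wide: 54.5% of all 11451 tested genes changed, 25.3% being higher and 29.2% lower. The transport genes changed in 77.8% of cases, 70.4% higher and 7.41% lower. Their median log2 difference was 0.26, beside -0.018 over all tested genes. The rises were modest, between 1.09 and 1.62 times the control mean with a median of 1.26 times, and 0 of the 42 changed genes reached a log2 difference of 1. Values of the groups did not overlap for 39 genes that were higher and 5 that were lower, 81.5% of those tested, where 63% of all tested genes did not overlap. By direction, 29.6% of all tested genes were higher without overlap and 33.4% lower. The members were not tested as a set, and they were chosen with earlier results of these data known. In bulk RNA, fewer cells with a transcript and less of it per cell cannot be told apart. NUP210L, a relative of NUP210, lay below the filter at 0.193 to 0.224 FPKM in libraries labelled knockout and 0.173 to 0.208 FPKM in the controls.

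**Figure D1:**
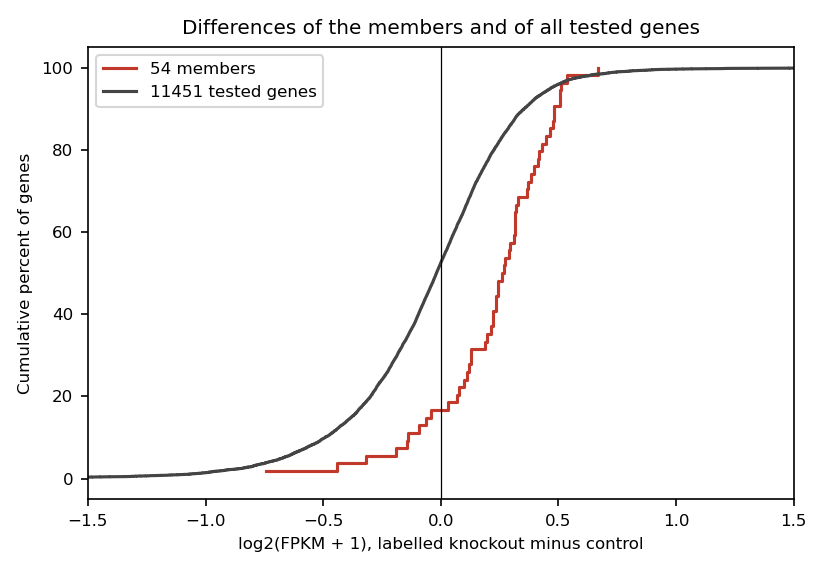
Cumulative percent of genes (vertical axis) against the log2(FPKM + 1) difference of libraries labelled knockout minus control (horizontal axis), for the 54 tested transport genes and all 11451 tested genes. The axis cuts the far ends of the curve of all genes. The curve of the transport genes lies to the right over most of its range, with a median of 0.26 against -0.018, and its lowest point at -0.74 is RAN.

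**Figure D2:**
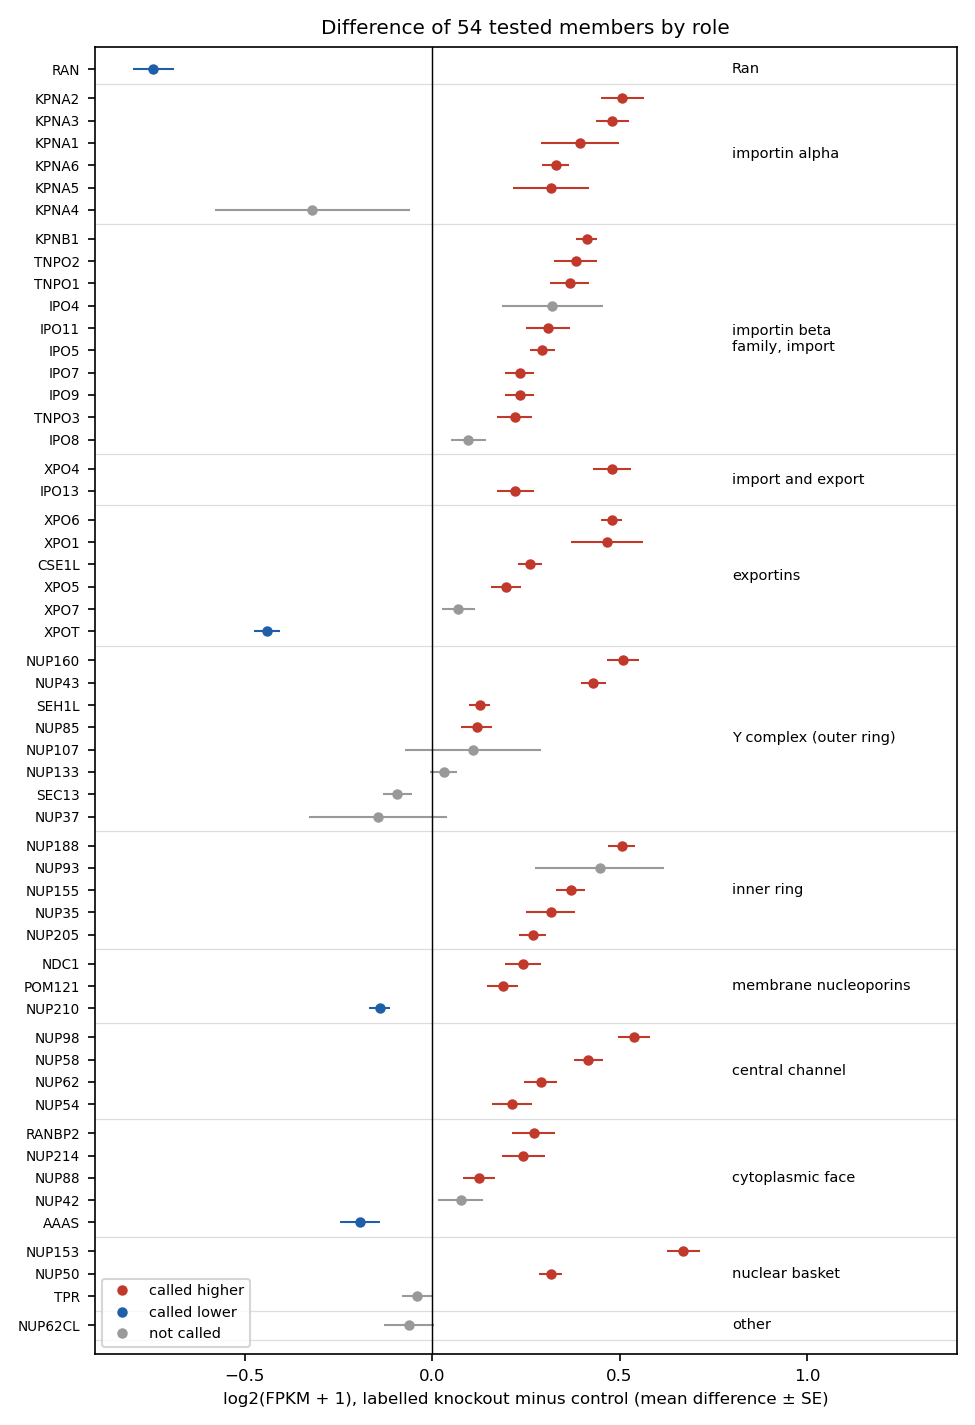
Each point is the log2(FPKM + 1) difference of 1 gene, libraries labelled knockout minus control, with its SE, grouped by role from top to bottom. Genes that rose lie between 0.12 and 0.67, while RAN at -0.74, XPOT at -0.44, AAAS at -0.19 and NUP210 at -0.14 fell.

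Promoters of 4 genes that the results turn on are shown as RefSeq gives them on GRCh38.p14, each from 250 bases before the start site to 50 bases from it on. They are RAN, which fell, and NUP188, KPNA2 and XPO1, which rose. Capitals mark the E-box CACGTG in the first pair and the CCAAT box, on the strand shown, in the second pair. The RAN window is chr12:130871816-130872115 on the plus strand, NUP188 at chr9:128947449-128947748 on the plus strand, KPNA2 at chr17:68035485-68035784 on the plus strand and XPO1 at chr2:61538307-61538606 on the minus strand.
RAN: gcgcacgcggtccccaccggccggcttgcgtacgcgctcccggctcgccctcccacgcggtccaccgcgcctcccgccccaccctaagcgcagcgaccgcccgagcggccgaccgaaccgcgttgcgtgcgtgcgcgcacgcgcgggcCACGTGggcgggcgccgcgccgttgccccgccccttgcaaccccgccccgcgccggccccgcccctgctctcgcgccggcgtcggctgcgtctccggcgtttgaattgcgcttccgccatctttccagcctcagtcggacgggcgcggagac
NUP188: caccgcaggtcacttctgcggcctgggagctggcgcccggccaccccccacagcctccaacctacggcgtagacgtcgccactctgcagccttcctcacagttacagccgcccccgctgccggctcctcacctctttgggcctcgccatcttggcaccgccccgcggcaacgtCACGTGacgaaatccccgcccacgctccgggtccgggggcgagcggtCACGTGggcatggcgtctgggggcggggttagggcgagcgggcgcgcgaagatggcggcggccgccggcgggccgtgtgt
KPNA2: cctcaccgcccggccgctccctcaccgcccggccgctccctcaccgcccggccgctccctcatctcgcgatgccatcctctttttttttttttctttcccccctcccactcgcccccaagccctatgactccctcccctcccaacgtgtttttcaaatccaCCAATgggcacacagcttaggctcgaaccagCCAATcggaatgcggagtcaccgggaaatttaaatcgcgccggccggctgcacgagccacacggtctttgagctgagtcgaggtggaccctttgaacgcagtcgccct
XPO1: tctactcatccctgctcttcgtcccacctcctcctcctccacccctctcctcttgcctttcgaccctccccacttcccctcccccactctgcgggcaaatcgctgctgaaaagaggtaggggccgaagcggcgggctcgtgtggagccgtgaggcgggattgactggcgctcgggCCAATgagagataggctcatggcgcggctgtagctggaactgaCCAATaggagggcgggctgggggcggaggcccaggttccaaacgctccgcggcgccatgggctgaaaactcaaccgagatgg
Both strands were searched, and 50 of the 55 genes had a promoter in the RefSeq table. The E-box, the sequence that MYC with MAX binds, was present in 7 of these, and the single match of RAN starts 102 bases before the start site. Among genes that rose 5 of 35 held it, among those that fell 1 of 4, and among promoters of all tested genes 10.6% of 9137. The CCAAT box, bound by NF-Y, was present in 23 of the 50 promoters, against 37.3% of the promoters of all tested genes. It was in 16 of the 35 promoters of genes that rose and in 0 of the 4 of genes that fell. TPR, NUP42, NUP107, NUP37, NUP93 and NUP62CL, all without a call, and the untested NUP210L held it too. RAN and NUP188 share the E-box and went in opposite directions. A match describes letters in the window and is not a measured binding site.

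RAN was the most abundant of the 55 genes in both groups and had the largest change. It stood at 355, 328 and 357 FPKM in libraries labelled knockout, and at 624, 551 and 572 FPKM in the controls. All 3 libraries labelled knockout lay below the lowest control. The mean fell to 347 ± 16.2 FPKM in libraries labelled knockout, against 582 ± 37.6 FPKM in the controls (SD, n = 3 each; log2 difference -0.74, SE 0.054, limma adjusted p = 6.91e-05). RAN (ENSG00000132341) lies on chromosome 12 at 130871879 to 130877678 in GRCh38. GENCODE 29 annotates 9 pseudogenes named after RAN, and how the authors assigned reads that also match these copies is not known. Such copies are also annotated for KPNA2, TNPO1 and NUP210 (3 each) and for IPO7 and NUP35 (2 each). IPO5, IPO8, NUP58, SEC13 and XPOT have 1 each, and the same limit holds for all of these.

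Of 9 tested genes listed around the Ran cycle, 5 rose (55.6%) and 2 fell (22.2%). Over all tested genes 25.3% rose and 29.2% fell. The median log2 difference of the 9 genes was 0.24. The 2 that fell, picked after their values were seen, were RCC2 (-0.16 on the log2 scale) and RANBP9 (-0.13). These 2 are not taken here as regulators of the Ran cycle. RANBP1, which helps the GTPase-activating protein act on Ran, stood at 228, 222 and 213 FPKM in libraries labelled knockout and 179.8, 173 and 179 FPKM in the controls, without overlap. Its log2 difference was 0.32 (SE 0.0336, limma adjusted p = 0.000307). RANGAP1, the GTPase-activating protein itself, rose by 0.26 on the log2 scale, RANGRF by 0.25 and RANBP3, a cofactor of XPO1, by 0.24. RANGRF lost its call on leaving out control library 2 (0.18) or knockout library 1 (0.26) or 2 (0.18), and with a replicate block (limma adjusted p = 0.0714). RANBP3 lost it on leaving out control library 1 (0.24) or 3 (0.19) or knockout library 2 (0.19). RCC1, the nucleotide exchange factor of Ran and likewise picked afterwards, averaged 104 ± 1.18 FPKM in libraries labelled knockout and 97.7 ± 2.87 FPKM in the controls (log2 difference 0.09, limma adjusted p = 0.037). The level of RAN was 1.56, 1.48 and 1.68 times that of RANBP1 in libraries labelled knockout, against 3.47, 3.19 and 3.19 times in the controls.

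Among the importin alpha genes, KPNA2 dominated and rose. KPNA2 stood at 262, 249 and 249 FPKM in libraries labelled knockout and at 187, 185 and 162 FPKM in the controls (log2 difference 0.51, SE 0.0579, limma adjusted p = 0.000433). Every library labelled knockout exceeded every control. KPNA3 rose to 29.8 ± 0.45 FPKM in libraries labelled knockout, against 21.1 ± 1.07 FPKM in the controls, and KPNA6 to 27.05 ± 0.756 FPKM against 21.3 ± 0.114 FPKM. KPNA1 stood at 27.3, 25.7 and 23.8 FPKM in libraries labelled knockout and 22.7, 17.0 and 18.3 FPKM in the controls, and its call (log2 difference 0.40) was lost without knockout library 1 (0.35, limma adjusted p = 0.0512). KPNA5, the least abundant tested gene of all members, averaged 3.58 ± 0.376 FPKM in libraries labelled knockout and 2.68 ± 0.371 FPKM in the controls. Its call (limma adjusted p = 0.0324) was lost on leaving out either of control libraries 2 and 3 or knockout libraries 2 and 3, with a replicate block, and after a GC and length trend was removed.

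KPNA4 was the one importin alpha gene without a call. It stood at 11.3, 11.6 and 11.4 FPKM in libraries labelled knockout, and at 11.4, 23.8 and 11.1 FPKM in the controls. Control library 2 alone stood apart, and without it the log2 difference was 0.02 in place of -0.32. Summed over the 6 genes, importin alpha levels were 359.6, 347 and 346 FPKM in libraries labelled knockout, against 267, 272 and 236 FPKM in the controls. KPNA2 made up 72.8%, 71.8% and 71.9% of that sum in libraries labelled knockout, and 70.2%, 68.2% and 68.8% in the controls.

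**Figure D3:**
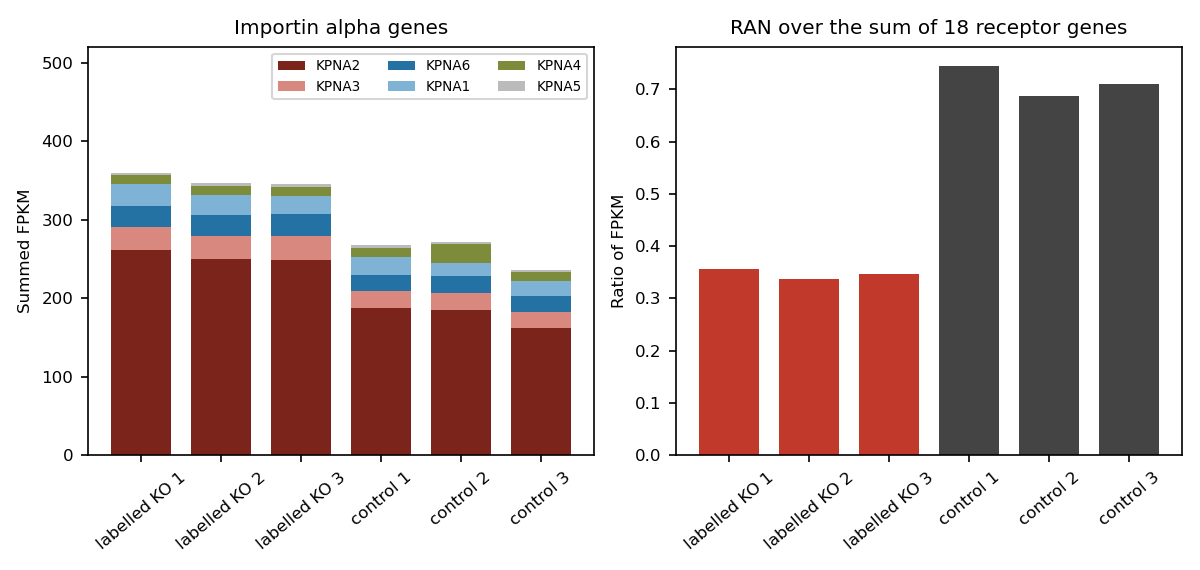
Left, FPKM of the 6 importin alpha genes stacked for each library; right, the FPKM of RAN divided by the summed FPKM of 18 importin beta family receptor genes. KPNA2 fills most of every stack, the wide KPNA4 band belongs to control library 2, and the RAN ratio is 0.356, 0.337 and 0.347 in libraries labelled knockout against 0.744, 0.687 and 0.711 in the controls.

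Among 10 import receptors of the importin beta family 8 rose (80%), 0 fell and 2 did not pass, where 25.3% of all tested genes rose. KPNB1, importin beta 1 itself, stood at 125, 123 and 128 FPKM in libraries labelled knockout and at 94.5, 93.8 and 93.7 FPKM in the controls. The groups were far apart for their spread (log2 difference 0.41, SE 0.0282, limma adjusted p = 5.53e-05). KPNB1 (ENSG00000108424) lies on chromosome 17 at 47649476 to 47685505. Transportin genes, whose products carry RNA-binding proteins, moved alike: TNPO2 rose to 21.7 ± 1.3 FPKM in libraries labelled knockout, against 16.4 ± 0.814 FPKM in the controls, TNPO1 to 47.05 ± 3.3 FPKM against 36.2 ± 0.383 FPKM, and TNPO3, the importer of SR splicing factors, to 32.4 ± 1.41 FPKM against 27.6 ± 1.01 FPKM.

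IPO5, an importer of ribosomal proteins and histones, stood at 149, 149.5 and 158 FPKM in libraries labelled knockout and 127, 124 and 121 FPKM in the controls (log2 difference 0.29, SE 0.0338, limma adjusted p = 0.000445). IPO11 rose by 0.31 and IPO7 and IPO9 each by 0.23 on the log2 scale. IPO9 lost its call with the GC and length trend removed (0.10, limma adjusted p = 0.0641). IPO8 averaged 19.9 ± 0.968 FPKM in libraries labelled knockout and 18.5 ± 0.509 FPKM in the controls, without overlap and without a call, and it passed as higher with median centring (0.12, limma adjusted p = 0.0485). IPO4, a histone importer, stood at 33.0, 27.7 and 27.7 FPKM in libraries labelled knockout and 18.9, 24.1 and 27.7 FPKM in the controls, and it passed without control library 3 (0.44) or once the GC and length trend was removed (0.43). Exons of IPO4 share 3470 bp with another listed gene on the same strand, so its values depend on how reads were divided.

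Of the receptors that work in both directions, XPO4, which exports the translation factor eIF5A, stood at 11.8, 11.5 and 11.03 FPKM in libraries labelled knockout and at 8.003, 8.24 and 7.55 FPKM in the controls (log2 difference 0.48, SE 0.0511, limma adjusted p = 0.000318). IPO13, which imports the SUMO-conjugating enzyme, rose by 0.22 on the log2 scale. From the family but outside the symbol rule, RANBP6 rose by 0.30, while RANBP17 averaged 2.63 ± 0.0602 FPKM in libraries labelled knockout and 2.82 ± 0.0981 FPKM in the controls, without a call.

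Exportin genes went both ways: 4 of 6 rose (66.7%), XPOT fell and XPO7 did not pass. Beside this, 25.3% of all tested genes rose and 29.2% fell. XPOT, the tRNA exporter, stood at 31.9, 31.6 and 33.2 FPKM in libraries labelled knockout and at 44.7, 43.2 and 44.3 FPKM in the controls, with no overlap. The log2 difference of XPOT was -0.44 (SE 0.0345, limma adjusted p = 9.05e-05). Among the 4 genes that fell, RAN alone fell further. XPOT (ENSG00000184575) lies on chromosome 12 at 64404350 to 64451127. It made up 7.45%, 7.51% and 7.49% of the summed FPKM of the 6 exportin genes in libraries labelled knockout, and 11.8%, 12.5% and 12.8% in the controls.

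XPO1, the exporter of proteins with leucine-rich signals, stood at 147, 141 and 159 FPKM in libraries labelled knockout and at 126, 101 and 97.9 FPKM in the controls. The groups did not overlap, though control library 1 stood above the other controls (log2 difference 0.47, SE 0.096, limma adjusted p = 0.00569). XPO6, the exporter of actin with profilin, stood at 61.6, 60.7 and 60.3 FPKM in libraries labelled knockout and at 43.1, 43.1 and 44.0 FPKM in the controls (log2 difference 0.48, SE 0.0285, limma adjusted p = 3.65e-05). CSE1L, which returns importin alpha to the cytoplasm, rose to 129 ± 1.32 FPKM in libraries labelled knockout, against 108 ± 3.72 FPKM in the controls. XPO5, the exporter of microRNA precursors, rose by 0.20 on the log2 scale. XPO7 averaged 32.5 ± 0.952 FPKM in libraries labelled knockout and 30.9 ± 1.41 FPKM in the controls (limma adjusted p = 0.221).

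**Figure D4:**
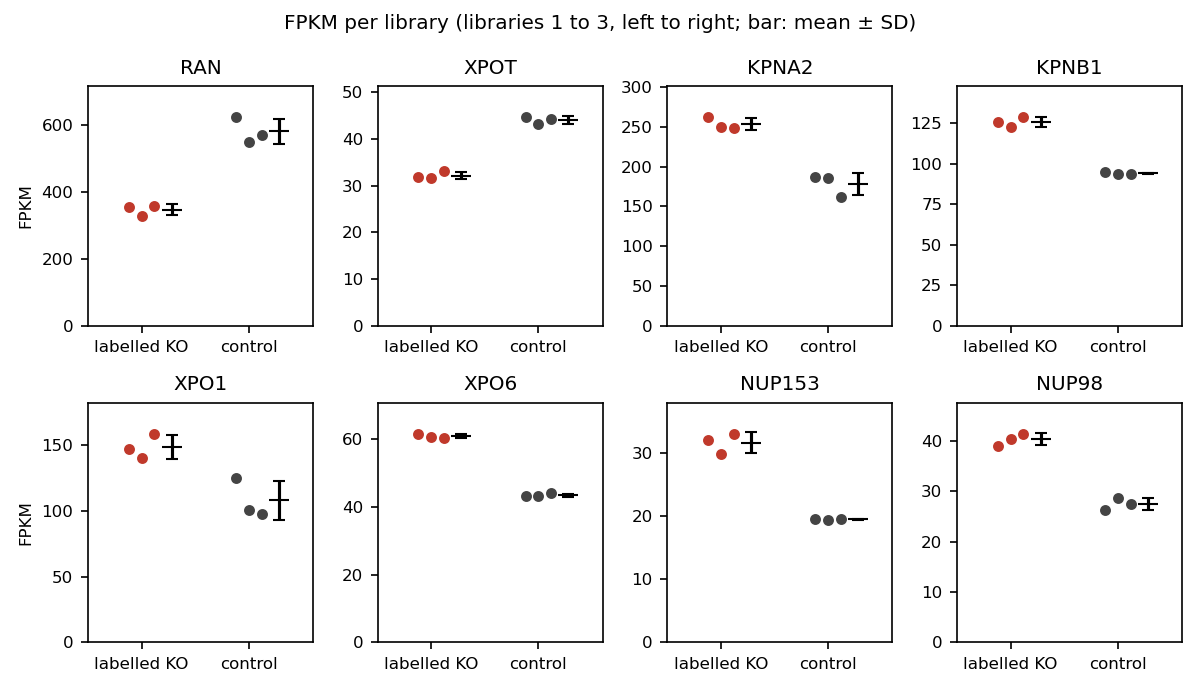
FPKM of 8 genes in each library (points, libraries 1 to 3 from left to right), with mean ± SD beside them, libraries labelled knockout on the left of each panel. RAN and XPOT lie lower in all 3 libraries labelled knockout, and the other 6 genes lie higher, with NUP153 at 31.6 ± 1.66 FPKM against 19.5 ± 0.11 FPKM in the controls.

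Of 28 nucleoporin genes, 19 rose (67.9%), 2 fell (7.14%) and 7 did not pass. Over all tested genes 25.3% rose and 29.2% fell. The summed FPKM of the 28 nucleoporin genes was 939, 932 and 959 in libraries labelled knockout, against 820.3, 826 and 829 in the controls. The nuclear basket held the largest rise of any of the 55 genes, NUP153, which docks transport complexes on the nuclear side. NUP153 stood at 32.0, 29.8 and 33.0 FPKM in libraries labelled knockout and at 19.5, 19.3 and 19.5 FPKM in the controls (log2 difference 0.67, SE 0.045, limma adjusted p = 5.23e-05). NUP153 (ENSG00000124789) lies on chromosome 6 at 17615035 to 17706834. NUP50, its partner in import, rose to 50.6 ± 0.621 FPKM in libraries labelled knockout, against 40.4 ± 0.684 FPKM in the controls. TPR, the filament protein of the same basket, stood at 19.7, 19.7 and 20.1 FPKM in libraries labelled knockout and at 20.8, 19.5 and 20.9 FPKM in the controls, and it passed as lower only with the GC and length trend removed (-0.16, limma adjusted p = 0.0157).

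All 4 genes of the central channel, the permeability barrier, rose, where 25.3% of all tested genes did. NUP98, whose precursor is also cleaved into the scaffold protein NUP96, stood at 39.0, 40.5 and 41.4 FPKM in libraries labelled knockout and at 26.3, 28.6 and 27.5 FPKM in the controls (log2 difference 0.54, SE 0.0429, limma adjusted p = 9.83e-05). NUP58 rose to 48.7 ± 2.06 FPKM in libraries labelled knockout, against 36.2 ± 0.226 FPKM in the controls, and NUP54, by its side in the channel, to 47.1 ± 1.39 FPKM against 40.5 ± 2.66 FPKM. NUP62 rose by 0.29 on the log2 scale. Exons of NUP62 share 626 bp with ATF5 on the opposite strand, and ATF5, a stress-response transcription factor, averaged 17.4 ± 0.647 FPKM in libraries labelled knockout and 24.7 ± 1.07 FPKM in the controls, the opposite direction. How the authors used strand is not known, so reads of the pair may be mixed. The same holds for NUP88 with RPAIN (520 bp) and RABEP1 (468 bp), XPO5 with POLR1C (348 bp) and NUP43 with PCMT1 (223 bp), while IPO11 shares 428 bp with KIF2A on its own strand. RABEP1 (0.33 on the log2 scale, limma adjusted p = 0.000393) and POLR1C (0.25, limma adjusted p = 0.0188) rose, as NUP88 and XPO5 did, and RPAIN fell by 0.30 (limma adjusted p = 0.0267). The part of shared reads in the rises of NUP88 and XPO5 was not tested.

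The inner ring rose in 4 of 5 genes (80%), beside 25.3% of all tested genes. NUP188 stood at 26.6, 27.2 and 26.4 FPKM in libraries labelled knockout and at 18.4, 19.04 and 18.1 FPKM in the controls (log2 difference 0.51, SE 0.0366, limma adjusted p = 6.88e-05). Its scaffold paralog NUP205 rose by 0.27, NUP155 by 0.37 and NUP35 by 0.32 on the log2 scale. NUP93, the linker of the ring, stood at 20.3, 16.2 and 17.9 FPKM in libraries labelled knockout and at 10.9, 11.4 and 17.5 FPKM in the controls. Control library 3 overlapped the libraries labelled knockout, and without it NUP93 passed (log2 difference 0.65, limma adjusted p = 0.003), as it did on the TPM scale (0.49) and with median centring (0.47).

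Members of the Y complex, the outer ring, were divided: 4 of 8 rose and 4 did not pass. The share that changed, 50%, was near the 54.5% of all tested genes, though 25.3% of all tested genes rose. NUP160 stood at 27.6, 26.9 and 29.4 FPKM in libraries labelled knockout and at 19.5, 19.2 and 19.4 FPKM in the controls (log2 difference 0.51, SE 0.0425, limma adjusted p = 0.00012). NUP43 rose to 31.8 ± 0.0644 FPKM in libraries labelled knockout, against 23.4 ± 0.514 FPKM in the controls. SEH1L, shared with an amino acid sensing complex, rose by 0.13 and NUP85 by 0.12 on the log2 scale. SEH1L lost its call with the GC and length trend removed (0.08). NUP85 lost it when any library other than knockout library 3 was left out, without a variance trend, and with a replicate block (limma adjusted p = 0.0767).

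The 4 Y complex genes without a call included SEC13, which also coats vesicles leaving the endoplasmic reticulum. SEC13 stood at 91.4, 91.2 and 86.03 FPKM in libraries labelled knockout and at 94.0, 93.5 and 99.2 FPKM in the controls, without overlap, and passed as lower under quantile normalization (-0.11, limma adjusted p = 0.03). NUP133 averaged 17.5 ± 0.101 FPKM in libraries labelled knockout and 17.1 ± 0.294 FPKM in the controls. The others had wide spreads: NUP107 stood at 17.2, 15.2 and 24.6 FPKM in libraries labelled knockout and 16.5, 15.01 and 20.5 FPKM in the controls. NUP37 stood at 27.8, 28.1 and 38.1 FPKM in libraries labelled knockout and at 29.9, 45.2 and 30.0 FPKM in the controls, so 1 library of each group stood apart.

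At the cytoplasmic face 3 of 5 genes rose (60%) and 1 fell (20%), against 25.3% and 29.2% of all tested genes. RANBP2, the large filament protein with SUMO ligase activity, rose to 26.3 ± 0.359 FPKM in libraries labelled knockout, against 21.7 ± 1.71 FPKM in the controls, and lost its call with the GC and length trend removed (0.14, limma adjusted p = 0.0797). RANBP2 has near-identical RGPD relatives, so its reads may be divided among them. NUP214 rose by 0.24 and its partner NUP88 by 0.13 on the log2 scale. NUP88 lost its call when any library other than control library 1 was left out, without a variance trend, and with a replicate block (limma adjusted p = 0.0826). NUP42, an mRNA export nucleoporin, averaged 22.5 ± 0.855 FPKM in libraries labelled knockout and 21.4 ± 1.56 FPKM in the controls, without a call. AAAS, which encodes aladin, stood at 27.4, 27.5 and 24.9 FPKM in libraries labelled knockout and at 29.01, 30.8 and 31.8 FPKM in the controls. Its call as lower (log2 difference -0.19, limma adjusted p = 0.0195) was lost on leaving out control library 2 (-0.19) or 3 (-0.16), and on removing the GC and length trend (-0.11).

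The membrane nucleoporins went both ways. NDC1, which anchors the pore in the envelope, rose to 43.4 ± 2.37 FPKM in libraries labelled knockout, against 36.5 ± 1.02 FPKM in the controls, and POM121 to 24.1 ± 0.47 FPKM against 21.1 ± 0.804 FPKM. POM121 and its near-identical copy POM121C, which rose by 0.21, share reads, and their division is uncertain. NUP210, whose product lies mostly in the lumen of the envelope, stood at 47.1, 47.3 and 47.2 FPKM in libraries labelled knockout and at 52.2, 51.9 and 52.4 FPKM in the controls. This small fall was larger than the spread of either group (log2 difference -0.14, SE 0.0273, limma adjusted p = 0.00447). NUP62CL, a relative of NUP62 outside the known pore, averaged 6.46 ± 0.261 FPKM in libraries labelled knockout and 6.79 ± 0.549 FPKM in the controls.

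Transcript length was weakly related to the difference. Spearman's rho between the longest annotated transcript and the log2 difference was 0.25 over the 54 members and 0.20 over 11160 tested genes with a transcript, as a description across genes, which are not independent. The members were long, with a median of 5345 bases against 3623 over all. With a trend over GC content and length removed, 35 members rose and 4 fell, and their median log2 difference was 0.22. Over all 11160 genes tested in this way the median was 0.0016, and 51.2% of calls were higher. The members called were not all the same: 34 of the 38 rises and 3 of the 4 falls were kept. IPO4 was added as higher and TPR as lower, while AAAS lost its call. With the trend removed RAN stood at -0.74 and XPOT at -0.52.

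**Figure D5:**
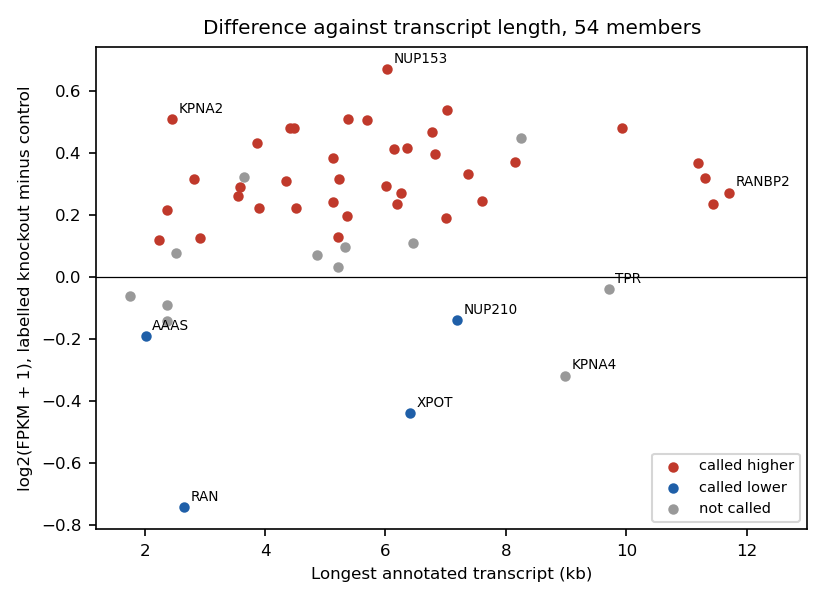
Log2(FPKM + 1) difference, libraries labelled knockout minus control (vertical axis), against the longest annotated transcript in kb (horizontal axis) for the 54 tested members. Spearman's rho over the 54 members was 0.25. RAN at -0.74 and KPNA2 at 0.51 have transcripts of similar length, 2661 and 2456 bases, and lie on opposite sides of 0. The part of length in these differences was not tested.

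The pathway genes outside the symbol rule come from lists of related functions. Among 15 tested pore components and pore-linked RNA export factors 7 rose and 0 fell, so 46.7% changed, where 54.5% of all tested genes changed and 25.3% rose. AHCTF1, which seeds new pores on chromatin, rose to 23.5 ± 1.13 FPKM in libraries labelled knockout, against 15.5 ± 0.571 FPKM in the controls, and DDX19A, a helicase of mRNA export, to 25.04 ± 0.718 FPKM against 16.8 ± 0.316 FPKM. MCM3AP rose by 0.36 and NXT1, the partner of NXF1, by 0.33 on the log2 scale. Of 10 cargo adaptors 5 rose (50%, beside 25.3% of all tested genes) and 3 fell (30.0%, near the 29.2% of all tested genes). The cap-binding gene NCBP1 rose by 0.41, the snRNA export adaptor gene PHAX by 0.38 and LTV1, a small ribosomal subunit factor, by 0.31. HIKESHI, the importer of HSP70, fell by 0.35. The other adaptor genes that fell, picked after their values were seen, were NMD3 (-0.25), for the large ribosomal subunit, and SNUPN (-0.16), for snRNPs.

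Among 17 genes of the nuclear lamina and inner membrane 7 rose and 2 fell, so 52.9% changed, which is near the 54.5% of all tested genes. By direction 41.2% rose and 11.8% fell, beside 25.3% and 29.2% of all tested genes. The median log2 difference of the 17 genes was 0.07. The B-type lamin genes moved together, LMNB1 to 95.7 ± 1.38 FPKM in libraries labelled knockout against 72.4 ± 1.97 FPKM in the controls, and LMNB2 to 95.0 ± 0.0598 FPKM against 73.1 ± 0.449 FPKM. TMPO rose by 0.31 and LEMD3 by 0.30 on the log2 scale, while SUN2 (-0.26) and SUN1 (-0.19), which link the envelope to the cytoskeleton and were picked after their values were seen, fell. Of 5 listed spindle checkpoint genes 4 rose, beside 25.3% of all tested genes. MAD2L1 rose by 0.51, BUB1 by 0.30, BUB3 by 0.24 and TTK by 0.16 on the log2 scale. For MAD1L1, the remaining gene of that list, the groups overlapped and there was no call (log2 difference 0.09, limma adjusted p = 0.363). In the SUMO cycle 3 of 8 genes rose (37.5%, beside 25.3% of all tested genes) and 0 fell. The share that changed in either direction was thus also 37.5%, below the 54.5% of all tested genes. The median log2 difference of the 8 genes was 0.0048. The proteases SENP1 and SENP2, which sit at the pore, rose by 0.38 and 0.26, and UBA2, part of the activating enzyme, by 0.18.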

How the data were processed

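RNA of 6 HCT15 libraries was measured. The tools listed in the submitters' processing notes are HISAT2 2.2.1 and StringTie 2.0.4, and the build is hg38. The authors deposited FPKM, per the file headers. Annotation, strand use and row filter: not given in the sources used here. Low values (below 0.5 FPKM) showed no steps of whole reads, with at most 0.93% of their ratios within any window of 0.1%, so depth per library is unknown. Columns summed to between 402288 and 415057 FPKM. Columns were matched to samples by name. limma 3.58.1 (R 4.3.3) was run on log2(FPKM + 1) over the 11451 genes averaging 1 FPKM or more, with a variance trend and no covariates; p-values were 2-sided and adjusted over all genes (Benjamini-Hochberg). Fold changes on this scale understate those of low genes. The fit was also run on simulated data with far fewer changed genes than were called here, so that run does not check the calls above. Coordinates are from GENCODE 29 (all 55 members matched by identifier), transcript lengths are of the longest transcript, and promoters are from RefSeq. Every member could be named; values per library went to the largest calls of each role, and from other lists to up to 4 called genes. Members, lists and motifs were chosen with earlier results of these data known; the overlapping gene ATF5 was picked after its values were seen. Alternatives were leaving out each library, a replicate block, removal of a GC and length trend, a flat variance prior, quantile normalization, median centring, the TPM scale, a filter at 5 FPKM or none, and a pseudocount of 0.1. Tables and plots used pandas 2.3.3 and matplotlib 3.10.9 under Python 3.11.15.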

Additional observations from a re-analysis of the deposited data

How the results depend on the processing

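Of the 38 genes that rose, 31 kept their call under all 15 alternatives, and of the 4 that fell RAN, XPOT and NUP210 did. Directions turned for 4 genes that had no call: leaving out single libraries gave KPNA4 values of -0.50 to 0.020 (the highest without control library 2), NUP37 values of -0.29 to 0.049 (the highest without control library 2) and NUP107 values of -0.083 (without knockout library 3) to 0.25, and NUP133 was at -0.026 on removing the GC and length trend; the cause was not tested. Deviations from the group mean correlated at -0.035, -0.037 and 4.54e-05 for same-numbered libraries, and at -0.020 to 0.054 for different-numbered ones. No pairing by replicate number was seen, but the labels do not say how libraries were made, so these values cannot settle it. With the replicate block 35 of the 38 rising genes and all 4 falling ones stayed called. Which direction held more genes of the whole table depended on scaling: 46.4% of calls were higher, and 53.8% under quantile normalization. Depth is unknown, so no counting error is given.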

Other observations

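Another 7 short motifs were searched on both strands in the 50 promoters, and each share is given as a description. The ETS motif CCGGAAGT was found in 7 of 35 promoters of genes that rose and in 9.7% of the promoters of all tested genes. The YY1 motif AAGATGGC was found in 5 of 35 and 1 of the 4 that fell, RAN, against 5.89% overall. The NRF1 motif GCATGCGC was found in 3 of 35 (5.89% overall), the CRE TGACGTCA in 1 of 35 (3.45%), and E2F motifs TTTCCCGC in 0 (2.82%) and TTTGGCGC in 1 (1.13%). The ATF4 and C/EBP composite TGATGNAAN was found in 1, that of NUP153 (1.54% overall). By mean FPKM, RAN and KPNA2 led the 55 genes in both groups, followed by IPO5, XPO1 and CSE1L. The order of these 3 is not firm: IPO5 and XPO1 overlapped in range in both groups, and XPO1 and CSE1L overlapped in the controls, at 97.9 to 126 FPKM and 105 to 112 FPKM.

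IPO4 and the gene that shares 3470 bp of its exons were looked at together after their values were seen. That gene stood at 1.59, 6.77 and 6.61 FPKM in libraries labelled knockout, and at 8.28, 2.60 and 0.841 FPKM in the controls, lowest in each group where IPO4 was highest. The sum of both genes was 34.6, 34.5 and 34.3 FPKM in libraries labelled knockout, against 27.2, 26.7 and 28.6 FPKM in the controls. The sums did not overlap between groups, while IPO4 alone had its lowest library labelled knockout just below its highest control, both at 27.7 FPKM.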
